A study of Mus musculus with 28 samples.

Results

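Tumour tissue of mice labelled M was compared with tumour tissue of mice labelled F, over autosomal genes. The libraries were taken by their titles: 3 are titled Tu_M and 11 Tu_F, which makes 14 of the 28 RNA-seq libraries of the study. Every animal, of both letters, is labelled c-Myc/Alb-cre transgenic, so that a c-Myc transgene is combined with Cre, which the albumin promoter directs to hepatocytes. The tumours are labelled HCC, hepatocellular carcinoma. No strain, age or treatment is given in the sources used here, and no library without the transgene was among them, so nothing here compares a tumour with a liver of an animal free of it. The other 14 libraries are peritumour liver of the same animals (3 Pe_M, 11 Pe_F). The labels do not expand the letters M and F.

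All 3 Tu_M libraries carry a sample code of the form number-1A, and so do Tu_F replicates 1, 2 and 3, while the other 8 Tu_F libraries carry codes of another form. The labels do not say what the code form stands for. Results are given over 3 against 11 libraries, and counts, list medians and many single genes again over the 3 Tu_M and the 3 Tu_F libraries of the shared code form.

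The adult liver of the mouse is one of the organs in which the sexes differ most outside the gonads. The pituitary releases growth hormone in pulses in males and almost without pause in females, and hepatocytes read this pattern through the growth hormone receptor, JAK2 and STAT5. STAT5 acts together with the repressor BCL6, which prevails in males, and the factor CUX2, which prevails in females, to set the levels of cytochrome P450, sulfotransferase and major urinary protein genes on the autosomes. Male mice also develop liver tumours more readily than females in many models, and loss of sex-biased expression is known from liver tumours.

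The letters were checked on 4 genes of the Y chromosome, Ddx3y, Eif2s3y, Kdm5d and Uty, which enter nothing else. Their summed level, in CPM (a gene's count relative to the library total, scaled by TMM factors), was 90.7 to 130 in the 3 Tu_M libraries and 0 to 0.186 in the 11 Tu_F libraries. Library totals were 14884135 to 17576921 estimated counts, and 15127 to 16428 genes had a count. Albumin (Alb) measured 27800, 23000 and 14100 CPM in Tu_M and 9240 to 32300 CPM (median 17300) in Tu_F, and the summed level of 21 hepatocyte identity genes was 45200 to 63100 CPM in Tu_M and 25000 to 80400 CPM in Tu_F, so hepatocyte transcripts were abundant in all 14 libraries. The lowest hepatocyte sum belonged to Tu_F replicate 2. Myc measured 333, 351 and 667 CPM in Tu_M and 258 to 671 CPM (median 458) in Tu_F, and the groups overlapped.

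No autosomal gene differed between Tu_M and Tu_F at an adjusted p under 0.05: 0 of 13362 were called (0%) by edgeR's quasi-likelihood test with Benjamini-Hochberg adjustment. At an unadjusted p under 0.05 there were 1106 genes (8.28%), of which 502 were higher in Tu_M (3.76%) and 604 lower (4.52%). Against the 3 Tu_F libraries of the shared code form, 0 of 12785 genes were called (0%), and 694 had an unadjusted p under 0.05 (5.43%), 227 higher (1.78%) and 467 lower (3.65%). With the code form as a covariate over the 14 libraries, 0 of 13362 were called (0%) and 1041 had an unadjusted p under 0.05 (7.79%), 207 of them higher (1.55%) and 834 lower (6.24%). The spread between libraries was wide, with a biological coefficient of variation of 0.469 over the 14 tumour libraries and 0.322 over the 14 peritumour libraries. The count at an unadjusted p under 0.05 was 453 without Tu_M replicate 3.

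In what follows no gene passed the adjusted threshold in the 14 libraries unless another tool is named. The values are therefore given as levels and differences. Counts at an unadjusted p under 0.05 over the 14 libraries are to be read against the shares of all genes. These were 3.76% on the higher side, 4.52% on the lower side and 8.28% in both together. The median log2 fold change of Tu_M over Tu_F over all autosomal genes tested was -0.05.

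The genes with the smallest p values on the higher side in Tu_M, among genes with a mean of at least 5 CPM in the higher group, were Lrp2bp, Tarsl2, Uchl3, Prkaa2 and Acsm3. Lrp2bp (gene ID 67620, chromosome 8, 46010598 to 46029478, GRCm38 as for all coordinates here) encodes a protein that binds the endocytic receptor LRP2. It measured 8.33, 10.4 and 34.9 CPM in Tu_M and 0.872 to 7.33 CPM (median 2.42) in Tu_F. All 3 Tu_M libraries lay above all 11 Tu_F libraries, replicate 3 of Tu_M highest of all. The log2 fold change was 2.66 ± 0.51 (SE), adjusted p = 0.236 (edgeR), and 2.27 ± 0.62 (SE) within the shared code form. Leaving out Tu_F replicate 10, the highest of the Tu_F libraries for this gene, brought Lrp2bp past the threshold (2.91, adjusted p = 0.0341, edgeR).

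Prkaa2 (gene ID 108079, chromosome 4, 105029162 to 105109898), a catalytic subunit of the energy sensor AMP-activated protein kinase, measured 98.5, 95.1 and 105 CPM in Tu_M and 19.7 to 66.3 CPM (median 43.7) in Tu_F. The 3 Tu_M values lay close together and above every Tu_F value, and the log2 fold change was 1.15 ± 0.26 (SE), adjusted p = 0.563 (edgeR). Acsm3 (gene ID 20216, chromosome 7, 119760883 to 119784896), a mitochondrial medium-chain acyl-CoA synthetase, measured 189, 145 and 193 CPM in Tu_M and 52.6 to 144 CPM (median 69.7) in Tu_F. Its groups were only just apart, with Tu_F replicate 1 at 144 CPM next to Tu_M replicate 2 at 145 CPM. Tarsl2 (gene ID 272396, chromosome 7, 65644898 to 65692093), a threonyl-tRNA synthetase, measured 34.9, 37.9 and 34.5 CPM against 11.2 to 24.1 CPM (median 18.4) in Tu_F. Uchl3 (gene ID 50933, chromosome 14, 101653881 to 101696125), a deubiquitinating hydrolase, measured 39.8, 40.1 and 50.6 CPM against 23.3 to 32.7 CPM (median 26.8) in Tu_F. For both genes every Tu_M library lay above every Tu_F library, with log2 fold changes of 0.98 ± 0.20 (SE) and 0.65 ± 0.14 (SE), adjusted p = 0.366 and 0.563 (edgeR). In peritumour liver these 5 genes had log2 fold changes of M over F of 0.61 for Lrp2bp, 0.30 for Prkaa2, 0.41 for Acsm3, 0.18 for Tarsl2 and 0.13 for Uchl3. The test of the difference between the tissues, which also holds a term for tissue by code form, did not pass for any of them (adjusted p 0.459 to 0.483, edgeR).

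On the lower side in Tu_M the smallest p values belonged to Tmem63a, Csrnp1, Coro1a, Mob3a and Cand2. Tmem63a (gene ID 208795, chromosome 1, 180942262 to 180975104), a mechanically gated ion channel, measured 18.2, 8.24 and 14.5 CPM in Tu_M and 22.7 to 68.4 CPM (median 38.2) in Tu_F, a log2 fold change of -1.50 ± 0.36 (SE), adjusted p = 0.563 (edgeR). Csrnp1 (gene ID 215418, chromosome 9, 119971163 to 119985637), a cysteine- and serine-rich nuclear protein, measured 3.7, 4.53 and 4.01 CPM against 5.34 to 12.7 CPM (median 9.65), a log2 fold change of -1.18 ± 0.28 (SE). Both genes were lower in every Tu_M library than in every Tu_F library.

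Cand2 (gene ID 67088, chromosome 6, 115774557 to 115805555), which binds cullins of ubiquitin ligases, had the largest log2 fold change of the 5 in size and measured 0.793, 0.471 and 0.276 CPM in Tu_M and 0.945 to 9.94 CPM (median 6.45) in Tu_F. Its Tu_F values formed 4 libraries under 2 CPM and 7 libraries above 3 CPM, and the log2 fold change was -3.31 ± 0.87 (SE). Mob3a (gene ID 208228, chromosome 10, 80676675 to 80701966), of the MOB family of kinase adaptors, measured 12.1, 10.8 and 8.36 CPM against 13.8 to 26.9 CPM (median 19.1), a log2 fold change of -0.88 ± 0.23 (SE). Coro1a (gene ID 12721, chromosome 7, 126699774 to 126707842), an actin-binding coronin of leukocytes, measured 11.9, 11.6 and 5.8 CPM against 10.3 to 32.6 CPM (median 27.7), a log2 fold change of -1.36 ± 0.34 (SE). Coro1a overlapped because Tu_F replicate 1, at 10.3 CPM, lay among the Tu_M libraries. In bulk tissue fewer cells of a type and less RNA per cell cannot be told apart, which touches Coro1a and all cell type lists given here. The adjusted p of Csrnp1, Cand2, Mob3a and Coro1a was 0.563 for each (edgeR). Within the shared code form the log2 fold changes were 0.91 for Prkaa2, 0.95 for Acsm3, 0.90 for Tarsl2, 0.48 for Uchl3, -1.08 for Tmem63a, -1.07 for Csrnp1, -3.50 for Cand2, -0.98 for Mob3a and -1.30 for Coro1a.

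**Figure D1:**
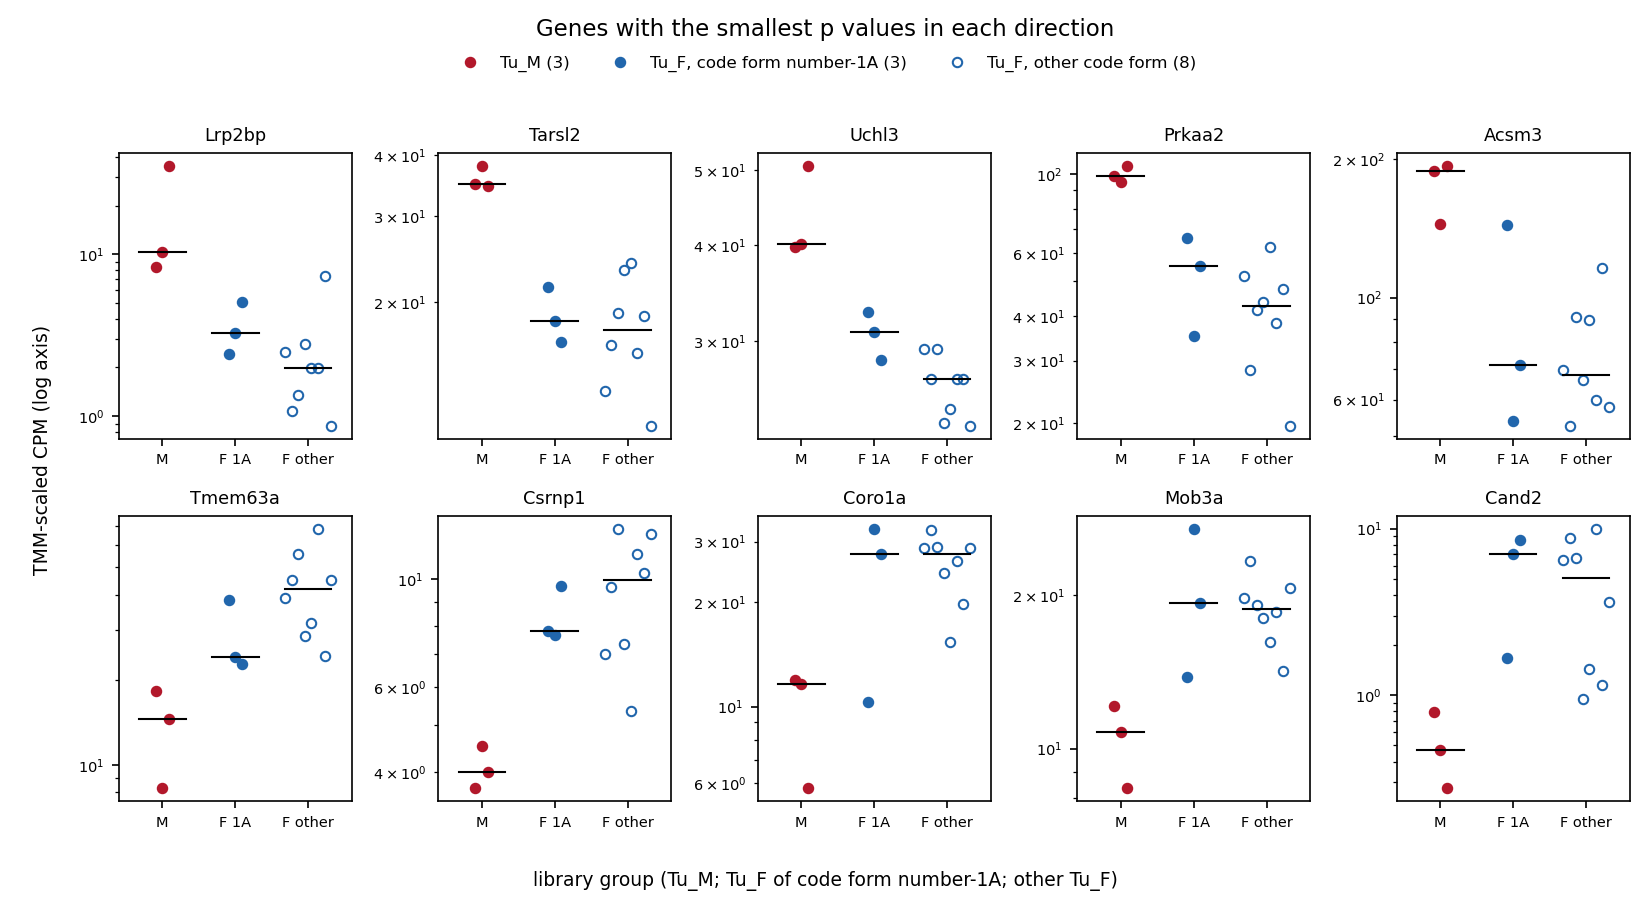
TMM-scaled CPM on log axes for the 5 genes with the smallest p on each side, with 1 point per library and the median of each group as a line (Tu_M, Tu_F of code form number-1A, other Tu_F). For 9 of the 10 genes the 3 Tu_M points lie wholly above or wholly below all 11 Tu_F points; Coro1a is the exception, through Tu_F replicate 1.

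Over all autosomal genes, 110 of 13362 had all 3 Tu_M values above every Tu_F value (0.823%) and 66 had all of them below (0.494%). With scaling by library size alone these counts were 65 and 55. Within the shared code form, 3 against 3, 730 of 12785 genes lay above (5.71%) and 538 below (4.21%), and 360 and 776 with library size alone. Among the 110 genes above, 1 was a member of the gene lists used here, the chemokine Ccl25, and among the 66 below there were 5: Srebf2, Abcc4, Cd79b, Tnfsf13b and Cd9. The share of tested list members is not given here beside the 0.823% and 0.494% of all genes. Neither count is therefore a result about the lists. Ccl25, which draws T cell precursors and gut-homing lymphocytes, measured 4.76, 3.82 and 5.8 CPM in Tu_M and 1.92 to 3.17 CPM (median 2.56) in Tu_F. Srebf2, the master regulator of cholesterol synthesis, measured 73.4, 95.4 and 82.8 CPM against 96.1 to 261 CPM (median 133), with its 2 nearest neighbours of different groups at 95.4 and 96.1 CPM. Abcc4, an export pump for bile acids and drugs in the hepatocyte membrane, measured 7.47, 3.47 and 7.66 CPM against 9.37 to 65.9 CPM (median 19.3), a log2 fold change of -1.88 ± 0.60 (SE), adjusted p = 0.563 (edgeR).

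DESeq2 on the same 14 libraries called 25 of 14442 autosomal genes with an adjusted p (0.173%), 6 higher in Tu_M (0.0415%) and 19 lower (0.132%). They held 9 of the 10 genes just described, all but Acsm3. A value within the shared code form was available for 22 of the 25, and all 22 kept their direction. Both counts rest on libraries among the 14 on which the genes were picked, so neither is independent support. Of the 25 genes, 13 had no overlap between the 3 and the 11 libraries. Among the rest were Cyp2b9, Dlk1, Prom1, Mmd2 and Adgrg1. Mmd2, of the progestin and adipoQ receptor family, measured 0.727, 0 and 0.276 CPM in Tu_M and 0.111 to 33.1 CPM (median 5.72) in Tu_F, a log2 fold change of -5.03 ± 1.41 (SE) with an adjusted p of 0.563 by edgeR and 0.00105 by DESeq2. In peritumour liver Mmd2 measured 0.432, 0.179 and 2.86 CPM in Pe_M and 3.18 to 22.4 CPM (median 6.43) in Pe_F. Adgrg1, an adhesion G protein-coupled receptor, measured 27.6, 21.6 and 26 CPM in Tu_M and 25.4 to 186 CPM (median 70.9) in Tu_F, and only Tu_F replicate 7 lay within the Tu_M range. Mmd2 and Adgrg1 were chosen after their values were seen.

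The authors' deposited table gives its own comparison of the same groups, under a column named for DEGseq, with a q-value under 0.05 for 10640 of the 13362 autosomal genes tested here (79.6%). Its log2 fold change has the sign of Tu_F over Tu_M: for 96.6% of these genes it was opposite to the M over F value computed here. The q-values come from another method than the edgeR and DESeq2 tests used here, so the shares are not alike in meaning.

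Genes of the mouse liver known to be higher in males formed a list of 31, of which 25 were tested. Of these 0 were called, 0 had an unadjusted p under 0.05 in either direction, and 18 had a log2 fold change above 0. The median was 0.36 over 11 Tu_F libraries and 0.60 within the shared code form (over the members tested there, as for all lists), against -0.05 and -0.01 over all genes. It ran from 0.10 without Tu_M replicate 1 to 0.56 without Tu_F replicate 4.

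Mup20, a major urinary protein that carries the scent of the male mouse, measured 2050, 378 and 603 CPM in Tu_M and 12.2 to 1530 CPM (median 282) in Tu_F, a log2 fold change of 1.27 ± 0.84 (SE), adjusted p = 0.604 (edgeR). Tu_M replicate 1 was the highest of the 14 libraries, but Tu_F replicates 3 and 4, at 1530 and 680 CPM, lay above the other Tu_M libraries. Mup21, of the same family, measured 10.8, 3.18 and 2.9 CPM against 0.203 to 8.6 CPM (median 0.875), a log2 fold change of 1.54 ± 0.86 (SE). C6, a component of the membrane attack complex of complement, measured 33.1, 69 and 18.7 CPM against 4.62 to 75.3 CPM (median 11.2), 0.89 ± 0.68 (SE). These 3 leaned to the M side and overlapped with Tu_F.

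Cyp2d9, a testosterone hydroxylase of the male liver, measured 275, 73.6 and 165 CPM in Tu_M and 12 to 320 CPM (median 102) in Tu_F, a log2 fold change of 0.45 ± 0.60 (SE). Cyp4a12a, a fatty acid hydroxylase known from male liver and kidney, measured 69, 8.41 and 58.8 CPM against 5.34 to 292 CPM (median 19.9), with the highest 2 values, 292 and 173, both in Tu_F (replicates 4 and 11). Its log2 fold change was -0.46 ± 1.07 (SE) over 11 Tu_F libraries and 1.41 ± 0.67 (SE) within the shared code form, where the Tu_F values were 18, 19.9 and 12.2 CPM. Cyp7b1, the oxysterol hydroxylase, measured 18.6, 0.941 and 29.5 CPM against 0.66 to 44.5 CPM (median 23.8). Slco1a1, an organic anion uptake transporter, measured 1.12, 1.71 and 2 CPM against 0 to 9.78 CPM (median 0.426), with Tu_F replicates 4 and 8 above every Tu_M library. Elovl3, a fatty acid elongase, measured 2.12, 0 and 1.31 CPM against 0.123 to 9.28 CPM (median 0.294). Hsd3b5, a steroid dehydrogenase that is a standard marker of male mouse liver, was too low to be tested, at 0.529 CPM or less in all 14 libraries. Over the 14 libraries the ranges of Tu_M and Tu_F thus overlapped for each male-biased gene named here, without being the same. Of the 11 Tu_F libraries, 9 lay below all 3 Tu_M libraries for Mup21 and Slco1a1, 8 for Hsd3b5, 7 for C6 and 6 for Mup20. For Cyp2d9 it was 2, for Cyp4a12a and Cyp7b1 1 each, and for Elovl3 0. In Tu_M replicate 2 Cyp4a12a, Cyp7b1, Elovl3 and Cyp2d9 were each at the lowest value of the 3 Tu_M libraries.

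Genes known to be higher in female liver formed a list of 42, of which 37 were tested: 0 were called, 1 had an unadjusted p under 0.05 on the higher side and 10 on the lower side, and 24 had a log2 fold change below 0. The one on the higher side was Atp6v0d2, a subunit of the vacuolar proton pump (1.00). The median was -0.54, the same with the 2 members at 0 in all Tu_M libraries set to their bound (-0.54), and -0.27 within the shared code form. It ran from -1.44 without Tu_M replicate 1 to -0.16 without Tu_M replicate 2.

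Cyp2b9, a cytochrome P450 of the female liver, had the smallest p of the list. It measured 0.727, 0.706 and 0.207 CPM in Tu_M and 0.203 to 49.8 CPM (median 6.95) in Tu_F. All Tu_F libraries but replicate 5, at 0.203 CPM, lay above all 3 Tu_M libraries. The log2 fold change was -4.48 ± 1.4 (SE), adjusted p = 0.563 by edgeR and 0.00505 by DESeq2, and -3.56 ± 0.86 (SE) within the shared code form. Cyp2a4, a steroid hydroxylase, measured 0.992, 0.235 and 0.414 CPM in Tu_M and 0.677 to 29.3 CPM (median 1.62) in Tu_F, -3.71 ± 1.33 (SE), adjusted p = 0.563 (edgeR). Cyp3a44 measured 0, 0.0588 and 0 CPM against 0.0556 to 3.81 CPM (median 0.559), and Cyp3a41a, its close relative, 0.661, 0.176 and 0.138 CPM against 0.167 to 7.92 CPM (median 1.04). Both are near-identical members of a gene cluster, so the authors' counting may have split reads between them and their copies. For these P450 genes the lowest Tu_F libraries lay at the level of Tu_M while the highest were many times above it.

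A1bg, a secreted plasma glycoprotein that is a marker of the female liver, had 0 counts in all 3 Tu_M libraries and 0 to 2.71 CPM (median 0.427) in Tu_F, 2 of whose libraries were also at 0. Against a floor of 3 counts over the Tu_M libraries (0.0644 CPM), the Tu_F mean was at least 13.9-fold higher. The promoter of A1bg is shown beside that of Cyp2b9, because Cyp2b9 had the smallest p of the list, A1bg was at 0 in Tu_M (the pair was chosen after its values were seen) and STAT5 is the known mediator of the growth hormone pattern. The sequences are the 250 bases before the annotated start in RefSeq (GRCm38.p6), read 5′ to 3′ on the strand of the gene, at chr15:60921271-60921520 (minus strand) for A1bg and chr7:26173159-26173408 (plus strand) for Cyp2b9. The deposited table has Cyp2b9 begin earlier, at base 26173335, so the last bases of the Cyp2b9 sequence lie within the gene as that table annotates it. Capitals mark a match to the STAT5-type motif TTCNNNGAA, which reads the same on both strands.

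A1bg: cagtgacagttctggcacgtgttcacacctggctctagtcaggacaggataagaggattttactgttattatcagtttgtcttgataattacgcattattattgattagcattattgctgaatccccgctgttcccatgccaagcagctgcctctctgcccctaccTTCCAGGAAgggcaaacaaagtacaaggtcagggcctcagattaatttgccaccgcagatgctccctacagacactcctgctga
Cyp2b9: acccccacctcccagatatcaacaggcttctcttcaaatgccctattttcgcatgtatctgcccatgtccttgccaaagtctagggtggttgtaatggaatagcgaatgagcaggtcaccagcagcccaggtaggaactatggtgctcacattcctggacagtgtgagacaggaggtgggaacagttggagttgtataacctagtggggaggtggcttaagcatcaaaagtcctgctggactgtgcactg

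A1bg held 1 match, with 75 bases between its end and the annotated start, and Cyp2b9 held 0. Over all 32851 promoters of the table, 2306 held the motif in the same window (7.02%). RefSeq promoters were matched for 29 of the 42 female-biased genes, where 4 of 34 promoters held it (11.8%), and for 21 of the 31 male-biased genes, where 2 of 24 did (8.33%). A match describes these letters only.

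For 5 more female-biased genes the groups overlapped. Sult2a1, a hydroxysteroid sulfotransferase, measured 15.3, 0.353 and 3.25 CPM in Tu_M and 1.61 to 16.5 CPM (median 9.65) in Tu_F, a log2 fold change of -0.54 ± 0.76 (SE). Hao2, a peroxisomal hydroxyacid oxidase, measured 8.2, 1.24 and 2.28 CPM against 2.03 to 9.22 CPM (median 3.94), and Acot3, an acyl-CoA thioesterase, 8.13, 18.8 and 117 CPM against 6.01 to 99.4 CPM (median 23.5). Cyp17a1, of steroid synthesis, measured 7.01, 7.53 and 4.7 CPM against 2.65 to 30.1 CPM (median 11.6), and Cyp2b13 0.397, 0.294 and 0 CPM against 0.0946 to 1.18 CPM (median 0.47). Sult3a1 was at 0 in all Tu_M libraries and at 0.249 CPM or less in Tu_F, and was not tested.

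**Figure D2:**
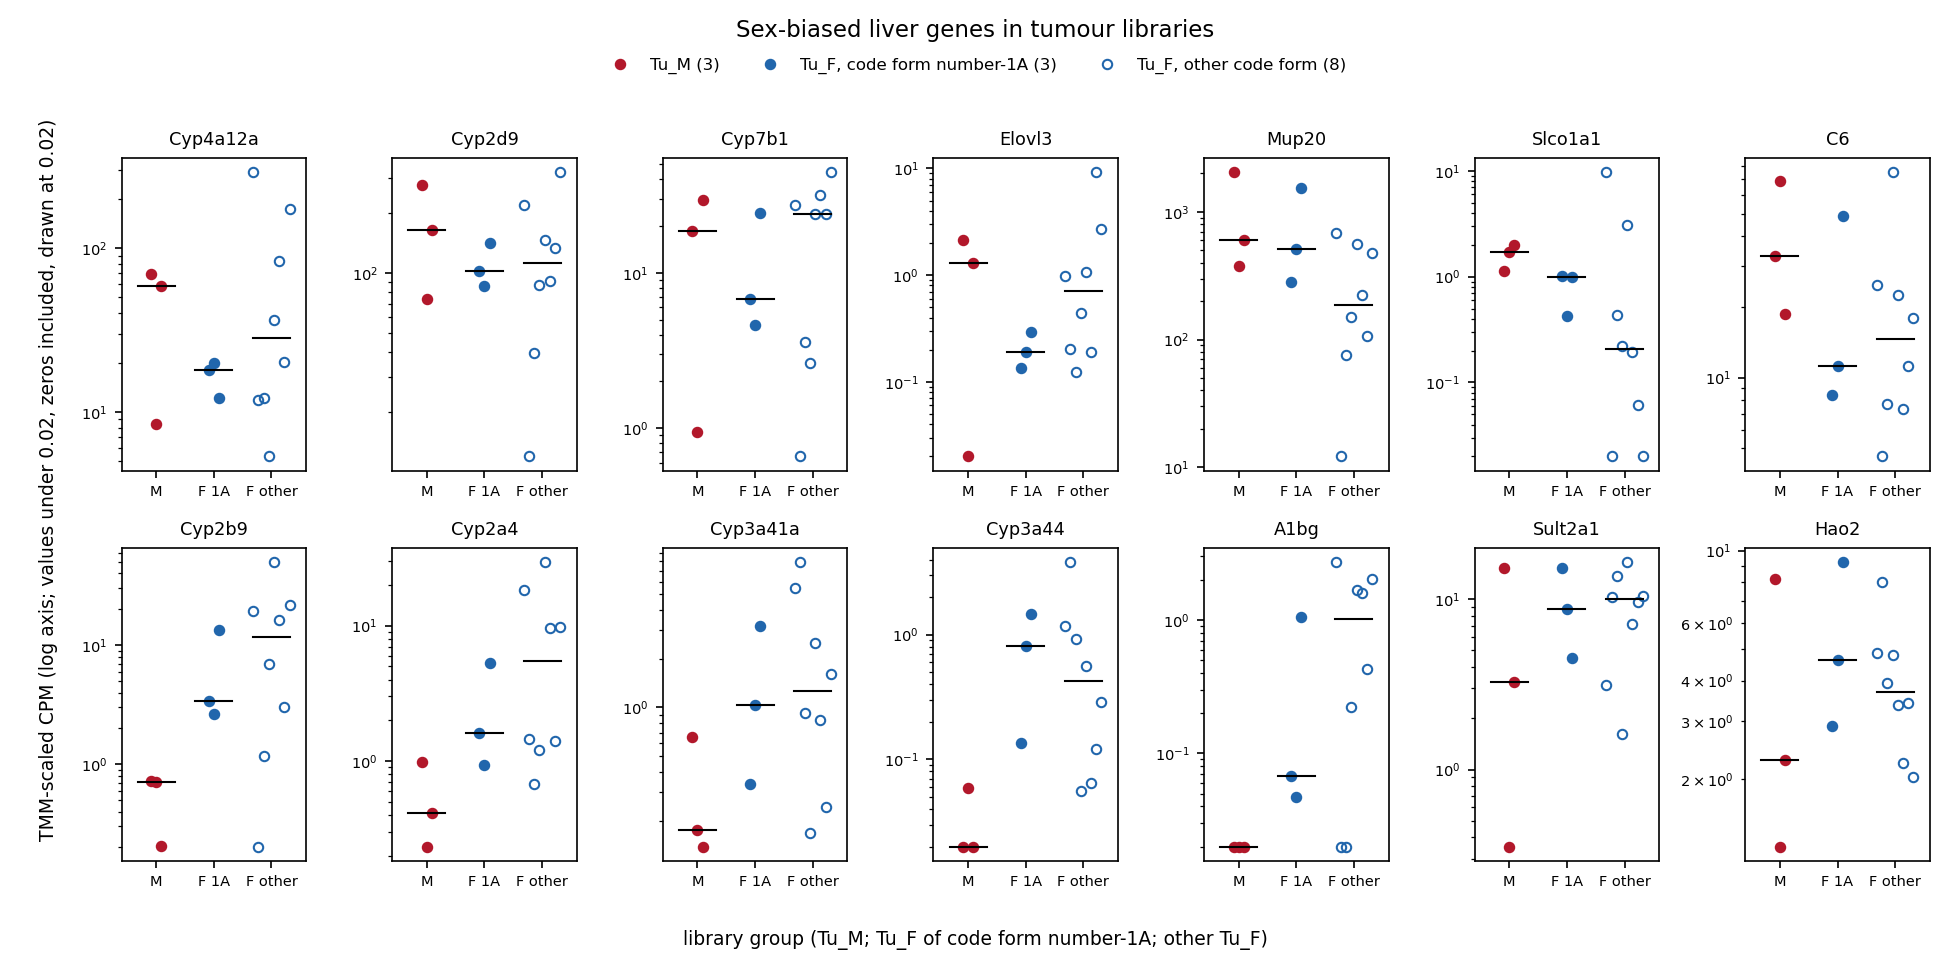
TMM-scaled CPM on log axes for 7 male-biased genes (upper row) and 7 female-biased genes (lower row), with 1 point per library and medians as lines; values under 0.02 CPM, zeros included, are drawn at 0.02. The male-biased genes overlap between the letters, while Cyp2b9, Cyp2a4, Cyp3a44 and A1bg have their Tu_M points at or near the bottom of the Tu_F range.

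Per transcript length, in the authors' deposited TPM, the level of Mup20 was 887 to 4410 in Tu_M and 31.4 to 3560 in Tu_F, above Cyp2d9 at 84.8 to 290 TPM and 15.2 to 238 TPM, when medians are compared. The female-biased Cyp2b9 had a median of 0.67 TPM in Tu_M and 6.56 TPM in Tu_F, and A1bg a median of 0.37 TPM in Tu_F. The male-biased genes with a sizeable level were thus present in tumours of both letters.

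The same lists were read in peritumour liver of the same animals, where 0 of 13250 autosomal genes were called between Pe_M and Pe_F (0%), 122 had an unadjusted p under 0.05 on the higher side (0.921%) and 191 on the lower side (1.44%), 313 in all (2.36%). Within the shared code form, 2 of 12815 genes were called in peritumour liver (0.0156%), Sult2a2 and Dlk1, and 904 had an unadjusted p under 0.05 (7.05%), 401 higher (3.13%) and 503 lower (3.93%). Over all 14 peritumour libraries 8 tested male-biased genes had an unadjusted p under 0.05, all higher in Pe_M, and 12 female-biased genes, all lower. The median log2 fold change was 0.49 for the male-biased and -0.87 for the female-biased list, beside 0.36 and -0.54 in tumour, with -0.01 over all genes in peritumour liver. The tumour and the peritumour library of an animal share that animal, so these are not independent series.

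Cyp2b9 had nearly the same difference in both tissues, with 1.98, 0.595 and 1.26 CPM in Pe_M, 0.807 to 104 CPM (median 24.5) in Pe_F and a log2 fold change of -4.56 ± 1.19 (SE). For Sult2a1 the tissues gave different values: in peritumour liver it measured 2.59, 1.67 and 3 CPM in Pe_M and 4.89 to 70.3 CPM (median 31.9) in Pe_F, -3.83 ± 0.76 (SE), against -0.54 in tumour. Sult2a2, its neighbour in the family and a close copy, had -3.19 ± 0.54 (SE) beside -0.43 ± 0.75 (SE) in tumour. For Elovl3 the peritumour log2 fold change was 2.66 ± 0.63 (SE), from 6.3, 3.39 and 10.1 CPM in Pe_M and 0.115 to 3.42 CPM (median 0.663) in Pe_F, beside -0.31 in tumour. Mup20 had 1.78 ± 0.57 (SE) beside 1.27. The test of the difference between the tissues, with the animal as a block, called 0 of 13641 autosomal genes (0%), with 1377 at an unadjusted p under 0.05 (10.1%), 556 on the higher side (4.08%) and 821 on the lower side (6.02%). The adjusted p of that test was 0.462 for Sult2a1, 0.514 for Sult2a2, 0.493 for Elovl3 and 0.618 for Mup20 (edgeR), so no difference between the tissues was shown for them.

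**Figure D3:**
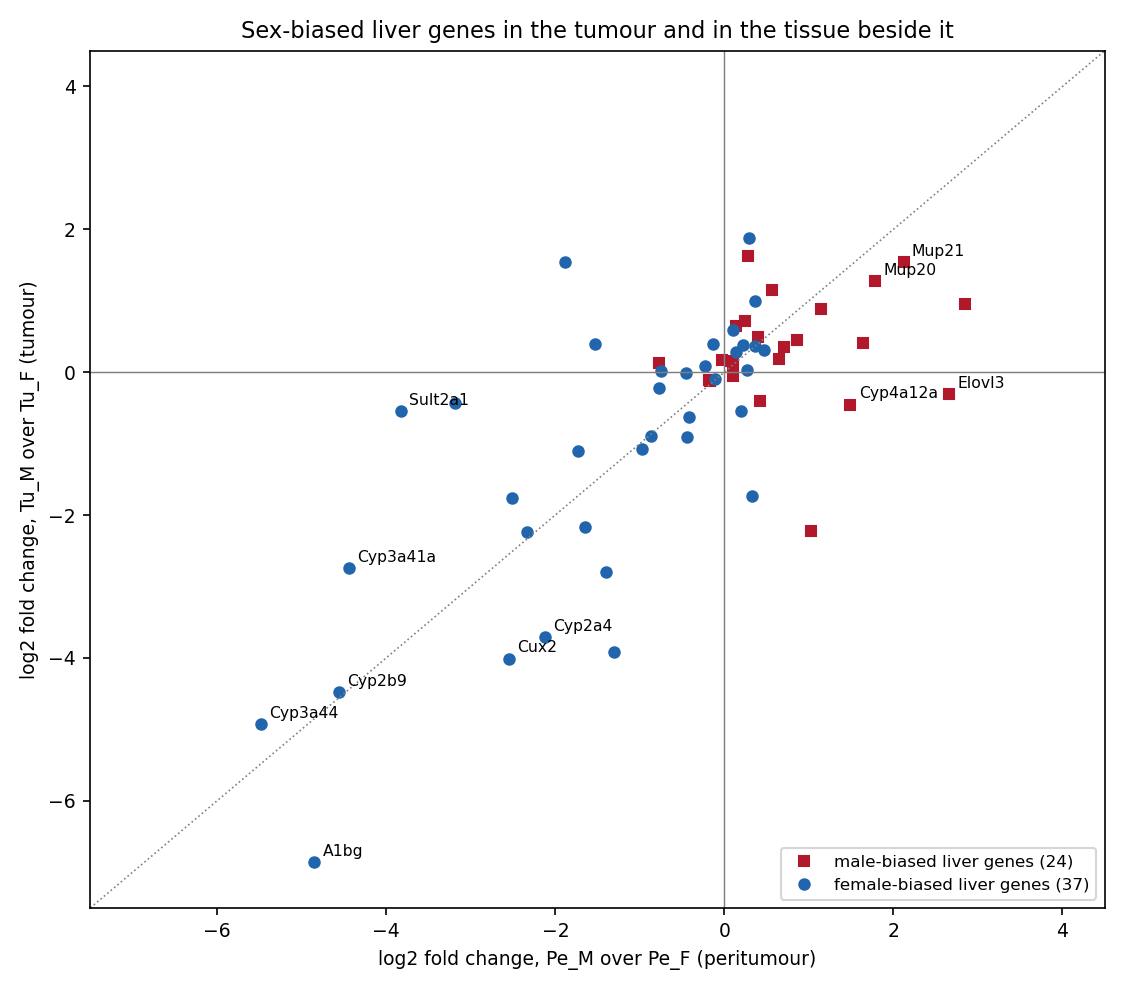
Log2 fold change of M over F in peritumour liver (x axis) and in tumour (y axis) for the tested sex-biased genes with a value in both tissues, 24 male-biased (squares) and 37 female-biased (circles); the dotted line marks equal values. Cyp2b9 and Cyp3a44 lie near the line, Sult2a1 and Elovl3 lie nearer to 0 on the tumour axis, and the fitted value of A1bg, at 0 counts in all Tu_M libraries, is no bound.

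The 27 genes of growth hormone signalling, 26 of them tested, had 0 called, 0 higher and 0 lower at an unadjusted p under 0.05, and a median of -0.19 (-0.04 within the shared code form). From here on a value in brackets after a list's median is the median within the shared code form, and one after a gene symbol is its log2 fold change over 11 Tu_F libraries. Counts of list members higher or lower are at an unadjusted p under 0.05, with 0 called in every list by edgeR. Ghr, the receptor, measured 149, 92.6 and 83.6 CPM in Tu_M and 47.6 to 179 CPM (median 73.7) in Tu_F. Stat5b measured 97.3, 92 and 122 CPM against 53.9 to 138 CPM (median 104), and Igf1, the main hormone made under growth hormone, 138, 73.6 and 29.3 CPM against 23.4 to 216 CPM (median 71). None of these 3 separated the letters.

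Cux2, the factor of the female liver, measured 0.132, 0.118 and 0.207 CPM in Tu_M and 0.128 to 11.7 CPM (median 0.435) in Tu_F, a log2 fold change of -4.01 ± 1.58 (SE), adjusted p = 0.563 (edgeR). Of the Tu_F libraries, replicates 2 to 6 lay at 1.25 CPM or more and the other 6 at 0.435 CPM or less, next to Tu_M. Bcl6, the repressor of the male liver, measured 36, 25.4 and 35 CPM in Tu_M against 14.7, 17.2 and 13.4 CPM in the Tu_F libraries of the shared code form, so that these groups did not overlap and differed by 1.05 ± 0.23 (SE). Over all 11 Tu_F libraries the range was 13.4 to 56.8 CPM (median 21.7) and the log2 fold change 0.22 ± 0.42 (SE). Within Tu_F, Bcl6 was higher in the other code form by 1.06 ± 0.42 (SE), adjusted p = 0.2 (edgeR). Socs2, a feedback inhibitor induced by growth hormone, measured 9.32, 4.12 and 4.83 CPM in Tu_M and 14.6, 31.3 and 16.4 CPM in the Tu_F libraries of the shared code form, -1.81 ± 0.46 (SE), but 2.88 to 31.3 CPM (median 4.82) over all Tu_F libraries. Bcl6 and Socs2 thus separated the letters within the shared code form, where 5.71% of genes lay above and 4.21% below, and not over the 14 libraries. DESeq2 within that form called 74 of 13375 autosomal genes (0.553%), with Bcl6 (adjusted p = 0.0145) and Socs2 (adjusted p = 0.0455) among them, while edgeR called 0. The other list members that DESeq2 called there were Cyp8b1, an enzyme of bile acid synthesis that was higher in Tu_M (adjusted p = 0.0454), and 7 that were lower: Prom1 (5.52e-06), Peg3 (7.83e-05), Epcam (0.00629), Cldn7 (0.00629), Dlk1 (0.00629), Cyp2b9 (0.0079) and Cldn4 (0.04), with the DESeq2 adjusted p in brackets.

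Steroid hormone receptors and steroid metabolism were a list of 30, 24 tested, with 0 called, 1 higher and 0 lower at an unadjusted p under 0.05 and a median of 0.14 (0.29). The gene on the higher side was Hsd17b13, a lipid droplet enzyme of hepatocytes that is also in the periportal list. It measured 1060, 654 and 1080 CPM in Tu_M and 301 to 926 CPM (median 506) in Tu_F, 0.72 ± 0.29 (SE), adjusted p = 0.563 (edgeR). Esr1, the oestrogen receptor of the liver, measured 3.9, 1.41 and 4.76 CPM in Tu_M and 2.4 to 15.2 CPM (median 4.21) in Tu_F, -0.95 ± 0.60 (SE), adjusted p = 0.594 (edgeR), with Tu_F replicates 3, 4 and 8 above 10 CPM. Esr2 and Pgr had 0 counts in all Tu_M libraries and were too low over the 14 libraries to be tested.

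Hepatocyte identity genes, 21 of 21 tested, had a median of 0.07 (0.18), with 0 higher and 1 lower at an unadjusted p under 0.05. The lower one was Trf, the iron carrier transferrin, at 7200, 5090 and 5030 CPM in Tu_M and 3800 to 19800 CPM (median 11000) in Tu_F, -0.97 ± 0.36 (SE). Of the Tu_F libraries 1, replicate 2, lay below all 3 Tu_M libraries. Pericentral genes, 17 of 18 tested, had 0 higher and 1 lower, 15 of 17 below 0 and a median of -0.61 (-0.44), which ran from -1.38 without Tu_M replicate 1 to -0.33 without Tu_M replicate 2. Cyp2e1, the pericentral ethanol oxidase, measured 760, 115 and 638 CPM against 21.3 to 1370 CPM (median 431), -0.21 ± 0.79 (SE). Periportal genes, 16 of 16 tested, had 1 higher and 1 lower and a median of -0.11 (0.06). The pericentral gene was Tcf7 (-1.45), a Wnt-responsive transcription factor that is also in the T cell list, and the periportal ones were Hsd17b13 and Sox9 (-1.37), a factor that is also in the cholangiocyte list.

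Among metabolic lists, fatty acid oxidation (20 of 21 tested) had 1 higher and 0 lower at an unadjusted p under 0.05 and a median of 0.20, and 0.88 within the shared code form. The median was -0.33 without Tu_M replicate 3, whose summed level of this list, 23800 CPM, was about that of Tu_F replicate 10 (23500 CPM). Acadm, the medium-chain acyl-CoA dehydrogenase, measured 456, 404 and 1030 CPM in Tu_M and 187 to 621 CPM (median 383) in Tu_F, 0.66 ± 0.30 (SE). Lipid and cholesterol synthesis (25 of 25) had 0 higher and 2 lower and a median of -0.25 (0.18), the lower ones being Srebf2 (-0.72) and Sqle (-1.22), the latter squalene epoxidase of cholesterol synthesis. Bile acid genes (15 of 16) had 0 higher and 0 lower and a median of 0.05 (0.24). Cyp7a1, the rate-limiting enzyme of bile acid synthesis, measured 110, 6.18 and 271 CPM in Tu_M and 1.83 to 130 CPM (median 17.2) in Tu_F, 1.86 ± 0.90 (SE), adjusted p = 0.563 (edgeR), with Tu_M replicate 2 below all but 1 Tu_F library. Drug metabolism and transport (48 of 48) had 0 higher and 2 lower and a median of -0.08 (0.02), and glycolysis and hypoxia genes (23 of 24) had 1 higher and 2 lower and 0.00 (0.29). The lower drug metabolism genes were Abcc4 and Nqo1 (-1.47), a quinone reductase. Of the glycolysis and hypoxia list, the glucose transporter gene Slc2a1 (-0.81) and the hexokinase gene Hk1 (-1.11) were lower and Ankrd37 (1.21) was higher.

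Tumour and fetal liver markers, 18 of 21 tested, had 0 called, 0 higher and 6 lower at an unadjusted p under 0.05, 15 of 18 below 0 and a median of -1.23 (-1.23 with the 2 members at 0 in Tu_M set to their bound, -0.62 within the shared code form). The median ran from -2.52 without Tu_M replicate 2 to -0.95 without Tu_F replicate 2. It was -0.43 without Tu_F replicates 2, 4, 5 and 6, which were left out together because earlier results had shown high blood cell precursor genes in them. Afp, the fetal serum protein that marks liver tumours, measured 13.3, 74.4 and 2.35 CPM in Tu_M and 8.06 to 11100 CPM (median 114) in Tu_F, a log2 fold change of -5.76 ± 2.64 (SE), adjusted p = 0.563 (edgeR). Tu_F replicates 2 to 7 lay above every Tu_M library, while replicates 1, 8, 9, 10 and 11, at 8.06 to 39.3 CPM, lay within the Tu_M range. The other lower members were Dlk1, Prom1, Peg3 (-3.60), Epcam (-3.25) and Cd24a (-2.65).

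Dlk1, a surface protein of fetal hepatoblasts, had 0 counts in all 3 Tu_M libraries and 0 to 278 CPM (median 3.04) in Tu_F. The Tu_F mean was at least 819-fold above the floor of 3 counts over the Tu_M libraries, and it rests on replicates 2 to 6, at 32 CPM or more, since the other 6 lay at 3.04 CPM or less, replicate 7 among them at 0. Prom1, which is also in the female-biased and cholangiocyte lists, a membrane protein of progenitor and biliary cells, measured 1.92, 0.353 and 0.621 CPM in Tu_M and 1.83 to 87 CPM (median 5.48) in Tu_F, -3.92 ± 1.29 (SE), adjusted p = 0.563 by edgeR and 0.016 by DESeq2. Of the Tu_F libraries 10 lay above all 3 Tu_M libraries, and replicate 7, at 1.83 CPM, just under Tu_M replicate 1. Muc13, an epithelial mucin, measured 0.727, 50.2 and 2.35 CPM against 0.378 to 99 CPM (median 9.7), with high and low tumours under both letters.

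Myc and its partners (13 of 15 tested) had a median of -0.06 (-0.02) with 0 higher and 0 lower, and Myc itself -0.05 ± 0.29 (SE). Myc target and ribosome biogenesis genes (25 of 25) had 2 higher and 0 lower and a median of 0.00 (0.29), and cell cycle genes (27 of 27) 0 higher and 0 lower and -0.07 (-0.05). The genes Npm1 and Ncl, both of nucleolar ribosome assembly, show the values by code form. Npm1 measured 941, 1070 and 2300 CPM in Tu_M, 1430, 1210 and 703 CPM in the Tu_F libraries of the shared code form, and 296 to 1430 CPM (median 591) over all Tu_F. Its log2 fold change was 1.07 ± 0.41 (SE) over 11 and 0.33 over 3 Tu_F libraries. Ncl had 0.87 ± 0.38 (SE) over 11 and 0.10 over 3, and Mki67, a protein of dividing cells, 1.22 ± 0.74 (SE) and 0.06.

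Within Tu_F, the other code form minus the number-1A form was -1.14 ± 0.31 (SE) for Npm1, -1.20 ± 0.27 (SE) for Ncl and -2.02 ± 0.58 (SE) for Mki67, on the log2 scale. Over all genes that comparison called 0 of 11425 (0%), while 2154 had an unadjusted p under 0.05 (18.9%), and 26 genes were called without Tu_F replicate 1. In genes that follow the code form, the 3 against 11 comparison mixes letter and form, since no Tu_M library has the other form. A fit with the code form as a covariate separates them only through the 3 Tu_F libraries of the shared form. In that fit the log2 fold change of Tu_M over Tu_F was 0.33 ± 0.42 (SE) for Npm1. It was 0.10 ± 0.32 (SE) for Ncl and 0.07 ± 0.77 (SE) for Mki67.

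T cell markers, 20 of 25 tested, had 0 called and 0 higher and 7 lower at an unadjusted p under 0.05, where 4.52% of all genes were lower, and all 20 had a log2 fold change below 0. The median was -1.15, and -1.76 within the shared code form. It ran from -1.63 without Tu_M replicate 1 to -0.92 without Tu_M replicate 3. The summed level of the list was 24.3, 15.1 and 13.2 CPM in Tu_M and 16.3 to 83.1 CPM (median 30.2) in Tu_F, so Tu_M replicates 2 and 3 lay below every Tu_F library and replicate 1 among them. The other lower members were Lck (-1.41), Cd3g (-1.71), Skap1 (-1.42), Tcf7 (-1.45) and Cd2 (-1.14). None of the list's genes in the table was at 0 in all Tu_M libraries.

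Cd3e, a chain of the T cell receptor complex, measured 0.859, 0.235 and 0.483 CPM in Tu_M and 0.794 to 3.64 CPM (median 1.5) in Tu_F, -1.69 ± 0.57 (SE), adjusted p = 0.563 (edgeR), and -2.22 ± 0.73 (SE) within the shared code form. Zap70, the kinase that binds that complex, measured 1.12, 0.706 and 0.829 CPM against 0.8 to 8.22 CPM (median 2.05), -1.82 ± 0.65 (SE). Cd8a, of cytotoxic T cells, measured 3.11, 1.76 and 1.59 CPM against 1.48 to 6.05 CPM (median 2.42), -0.59 ± 0.48 (SE). Only a few CPM stood behind each of these genes.

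Cytotoxic and NK cell markers, 10 of 18 tested, had 0 higher and 4 lower at an unadjusted p under 0.05, all 10 below 0, and a median of -0.96 (-0.90 over the 6 members tested within the shared code form). Their summed level was 16.7, 30.8 and 9.53 CPM in Tu_M and 24.8 to 78.5 CPM (median 44.5) in Tu_F. Klra4 and Klra8, at 0 in Tu_M, were too low over the 14 libraries to be tested. Nkg7, of cytotoxic granules, measured 2.58, 1.71 and 1.1 CPM against 2.11 to 5.32 CPM (median 4.67), -1.18 ± 0.39 (SE), with 10 Tu_F libraries above all Tu_M libraries. The other lower members were Ccl5, Gzma (-1.30) and Tbx21 (-1.45). Ccl5, a chemokine of activated T cells, measured 6.94, 17.9 and 3.87 CPM against 10.7 to 59.7 CPM (median 23.2), -1.63 ± 0.57 (SE). B and plasma cell markers (11 of 19) had 0 higher and 2 lower and a median of -0.34 (-0.40), which ran from -0.42 without Tu_M replicate 2 to -0.08 without Tu_M replicate 3. Cd79b, of the B cell receptor, measured 0.264, 0.529 and 0.0691 CPM in Tu_M and 0.733 to 3.08 CPM (median 1.38) in Tu_F, -2.27 ± 0.61 (SE), adjusted p = 0.563 (edgeR), without overlap, and the other lower gene was Sdc1 (-0.81), a syndecan of plasma cells and of epithelium. In peritumour liver the same letters gave a median of -0.27 for T cell markers and -0.79 for cytotoxic and NK cell markers.

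The medians of both antigen presentation lists were below 0. All 12 MHC class II genes, each tested, were below 0, with 0 higher and 4 lower at an unadjusted p under 0.05, a median of -1.29 (-1.01) and a summed level of 661, 502 and 311 CPM in Tu_M and 352 to 2910 CPM (median 681) in Tu_F, which overlapped. The lower ones were H2-Ab1, H2-Eb1 (-1.59), H2-DMb1 (-1.62) and H2-Aa (-1.21). H2-Ab1, a class II chain, measured 87.8, 54 and 38.9 CPM against 45.1 to 481 CPM (median 93.1), -1.59 ± 0.72 (SE). MHC class I presentation genes (17 of 18) had 1 higher and 4 lower and a median of -0.69, but -0.15 within the shared code form. The lower ones were Psmb8, Psmb9 (-1.95), Tapbp (-1.11) and H2-Q4 (-0.89), and the higher one was the chaperone gene Canx (0.41). Psmb8, of the immunoproteasome, measured 12.8, 16.9 and 8.91 CPM against 11.7 to 127 CPM (median 28.6), -1.77 ± 0.72 (SE) over 11 and -0.71 over 3 Tu_F libraries.

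Chemokines and their receptors (31 of 36) had 1 higher and 3 lower, 29 below 0 and a median of -0.77 (-0.79), cytokines (19 of 36) 0 higher and 1 lower and -0.59 (-0.96), and immune checkpoint genes (16 of 21) 0 higher and 3 lower and -0.34 (-0.35). Ccl25 was the higher chemokine gene, and Ccl5, Cx3cr1 (-1.38) and Cxcl5 (-3.54) were the lower ones. The lower checkpoint genes were Tnfrsf4 (-1.61), Vsir (-0.65) and Vtcn1 (-2.88). The lower cytokine gene, Csf1, the growth factor of macrophages, measured 15.5, 17.2 and 11 CPM in Tu_M and 13.5 to 45.1 CPM (median 27.7) in Tu_F, -0.94 ± 0.34 (SE). Cd274, which encodes the checkpoint ligand PD-L1, measured 4.5, 14.3 and 4.56 CPM against 4.58 to 20.6 CPM (median 7.93), -0.48 ± 0.53 (SE) over 11 and 0.30 over 3 Tu_F libraries. Interferon response genes (29 of 31) had 0 higher and 0 lower and a median of -0.32, and 0.18 within the shared code form, the opposite sign. The median over 11 Tu_F libraries ran from -1.18 without Tu_M replicate 2 to -0.05 without Tu_M replicate 3. The chemokine median ran from -1.25 without Tu_M replicate 2 to -0.61 without Tu_F replicate 2 and the cytokine median from -0.73 without Tu_M replicate 2 to -0.36 without Tu_F replicate 2.

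Among myeloid lists, monocyte and macrophage markers (20 of 20) had 0 higher and 5 lower, 19 below 0 and a median of -0.45 (-0.56). The lower ones were Cd9, Itgam (-1.58), Ly6c2 (-1.17), Cx3cr1 (-1.38) and Chil3 (-1.51), the last of which is also in the granulocyte list. Cd9, a tetraspanin, measured 64.5, 65.2 and 31.5 CPM in Tu_M and 65.8 to 192 CPM (median 97.2) in Tu_F, with the nearest 2 libraries of different letters at 65.2 and 65.8 CPM. Dendritic cell markers (15 of 15) had 0 higher and 0 lower and -0.43 (-0.51), and Kupffer cell markers (13 of 14) 0 higher and 0 lower and -0.28 (0.35). Clec4f, the lectin that defines Kupffer cells, measured 89.9, 15.3 and 10.6 CPM against 12.3 to 64.2 CPM (median 34.5), 0.02 ± 0.60 (SE). On leaving out 1 library the median of monocyte and macrophage markers ran from -0.75 without Tu_M replicate 2 to -0.29 without Tu_M replicate 3, that of dendritic cell markers from -0.73 without Tu_M replicate 2 to -0.24 without Tu_M replicate 3 and that of Kupffer cell markers from -0.51 without Tu_M replicate 1 to 0.12 without Tu_M replicate 3.

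Neutrophil and granulocyte precursor markers, 17 of 17 tested, had 0 higher and 6 lower, all 17 below 0 and a median of -2.06. The median was -0.86 within the shared code form and -1.39 for Pe_M over Pe_F in peritumour liver. Without Tu_F replicates 2, 4, 5 and 6, picked for high blood cell precursor genes, the tumour median was -0.68. As these libraries were picked on such genes, the smaller size of the median was set by the choice and is no test. The summed level of the list was 218, 933 and 173 CPM in Tu_M, 199, 485 and 417 CPM in the Tu_F libraries of the shared code form, and 199 to 2880 CPM (median 1330) over all Tu_F. The lower ones were Mpo, Mmp9 (-2.19), Elane (-2.62), S100a8 (-2.17), S100a9 (-2.06) and Chil3 (-1.51). Mpo, of neutrophil granules, measured 2.05, 2.12 and 0.621 CPM against 1.17 to 37.6 CPM (median 10.6), -2.92 ± 1.09 (SE). Erythroid precursor genes (19 of 22) had 0 higher and 2 lower and a median of -1.92. Within the shared code form it was 0.17, but over only 10 of the 19 members. Over all 19, with the code form as a covariate, it was -0.79. The median was 0.335 without Tu_F replicates 2, 4, 5 and 6, a shift likewise set by that choice, and -1.76 for Pe_M over Pe_F in peritumour liver. By summed level Tu_F replicate 2 (722 CPM) lay within the Tu_M range (391 to 745 CPM), while replicate 11, which was kept, had 1300 CPM. The lower ones were Rhd (-4.58) and Ermap (-4.74). Ermap, of the red cell membrane, reached 3.4 to 14.4 CPM in Tu_F replicates 2, 4, 5 and 6, and lay at 0.994 CPM or less in the other 7 Tu_F and the 3 Tu_M libraries.

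Cholangiocyte markers, 14 of 16 tested, had 0 called, 0 higher and 7 lower at an unadjusted p under 0.05, 13 below 0 and a median of -2.40 (-3.91 within the shared code form). The summed level was 152, 119 and 108 CPM in Tu_M and 124 to 1860 CPM (median 210) in Tu_F, with the highest sum in Tu_F replicate 2, the library with the lowest hepatocyte sum. Without that library the median over the other Tu_F libraries was -1.18. Within the shared code form it is 1 of 3 Tu_F libraries, whose sums were 210, 1860 and 378 CPM. No median without it was computed there. The lower ones were Prom1, Krt19, Cldn7, Epcam (-3.25), Krt7 (-3.92), Sox9 (-1.37) and Elf3 (-1.11). Krt19, a keratin of bile duct cells, measured 4.36, 0.353 and 1.38 CPM in Tu_M and 2.22 to 589 CPM (median 7.4) in Tu_F, -4.99 ± 2.25 (SE), adjusted p = 0.563 (edgeR), with the highest value again in replicate 2. Cldn7, a tight junction protein of ducts, measured 2.25, 1.18 and 0.414 CPM against 1.08 to 71.9 CPM (median 2.69), -3.67 ± 1.58 (SE). In peritumour liver the list's median was 0.02.

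Sinusoidal endothelial markers (11 of 12) had 0 higher and 1 lower and a median of -0.39 (-0.19), vascular endothelial markers (14 of 15) 0 higher and 0 lower and -0.28 (0.20), and stellate cell and fibroblast markers (20 of 21) 0 higher and 1 lower and -0.44 (-0.65). The sinusoidal median ran from -0.88 without Tu_M replicate 1 to -0.15 without Tu_M replicate 3, and the stellate cell and fibroblast median from -1.04 without Tu_M replicate 1 to -0.20 without Tu_M replicate 2. The lower genes were Stab1 and, of the fibroblast list, Pdgfrb (-0.57), a receptor of stellate cells and pericytes. Col1a1, the main fibrillar collagen, measured 86.2, 85.6 and 28.7 CPM in Tu_M and 54.5 to 494 CPM (median 134) in Tu_F, -1.34 ± 0.63 (SE). Stab1, a scavenger receptor of sinusoidal endothelium, measured 42.8, 30.5 and 28 CPM against 29.4 to 79.6 CPM (median 57.7), -0.73 ± 0.26 (SE). Over 11 Tu_F libraries the medians of the leukocyte, duct and stroma lists named here were all below 0, while those of Kupffer cell and vascular endothelial markers were above 0 within the shared code form. No cell numbers were measured, and the part of tissue composition in each of these values was not tested.

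**Figure D4:**
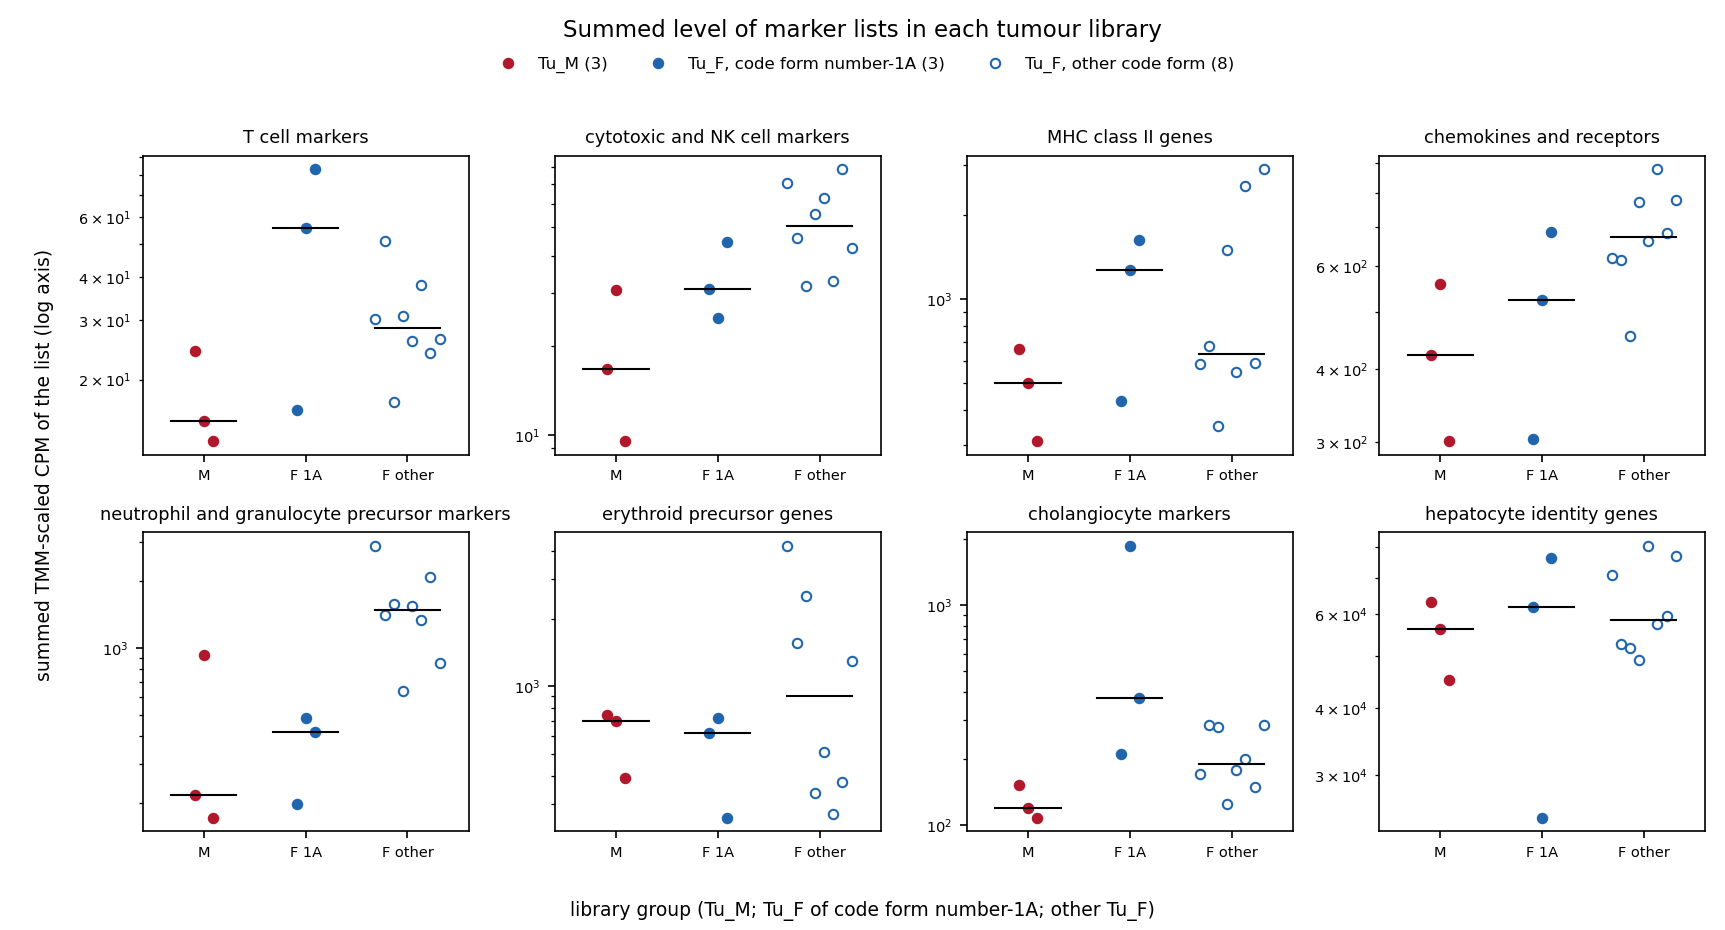
Summed TMM-scaled CPM of 8 gene lists on log axes, with 1 point per tumour library and medians as lines. T cell sums of Tu_M (13.2 to 24.3 CPM) lie at the bottom of the Tu_F range (16.3 to 83.1 CPM), the granulocyte sums are 199 to 485 CPM in Tu_F of code form number-1A and 638 to 2880 CPM in other Tu_F, and 1 Tu_F library stands apart in cholangiocyte markers at 1860 CPM.

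**Figure D5:**
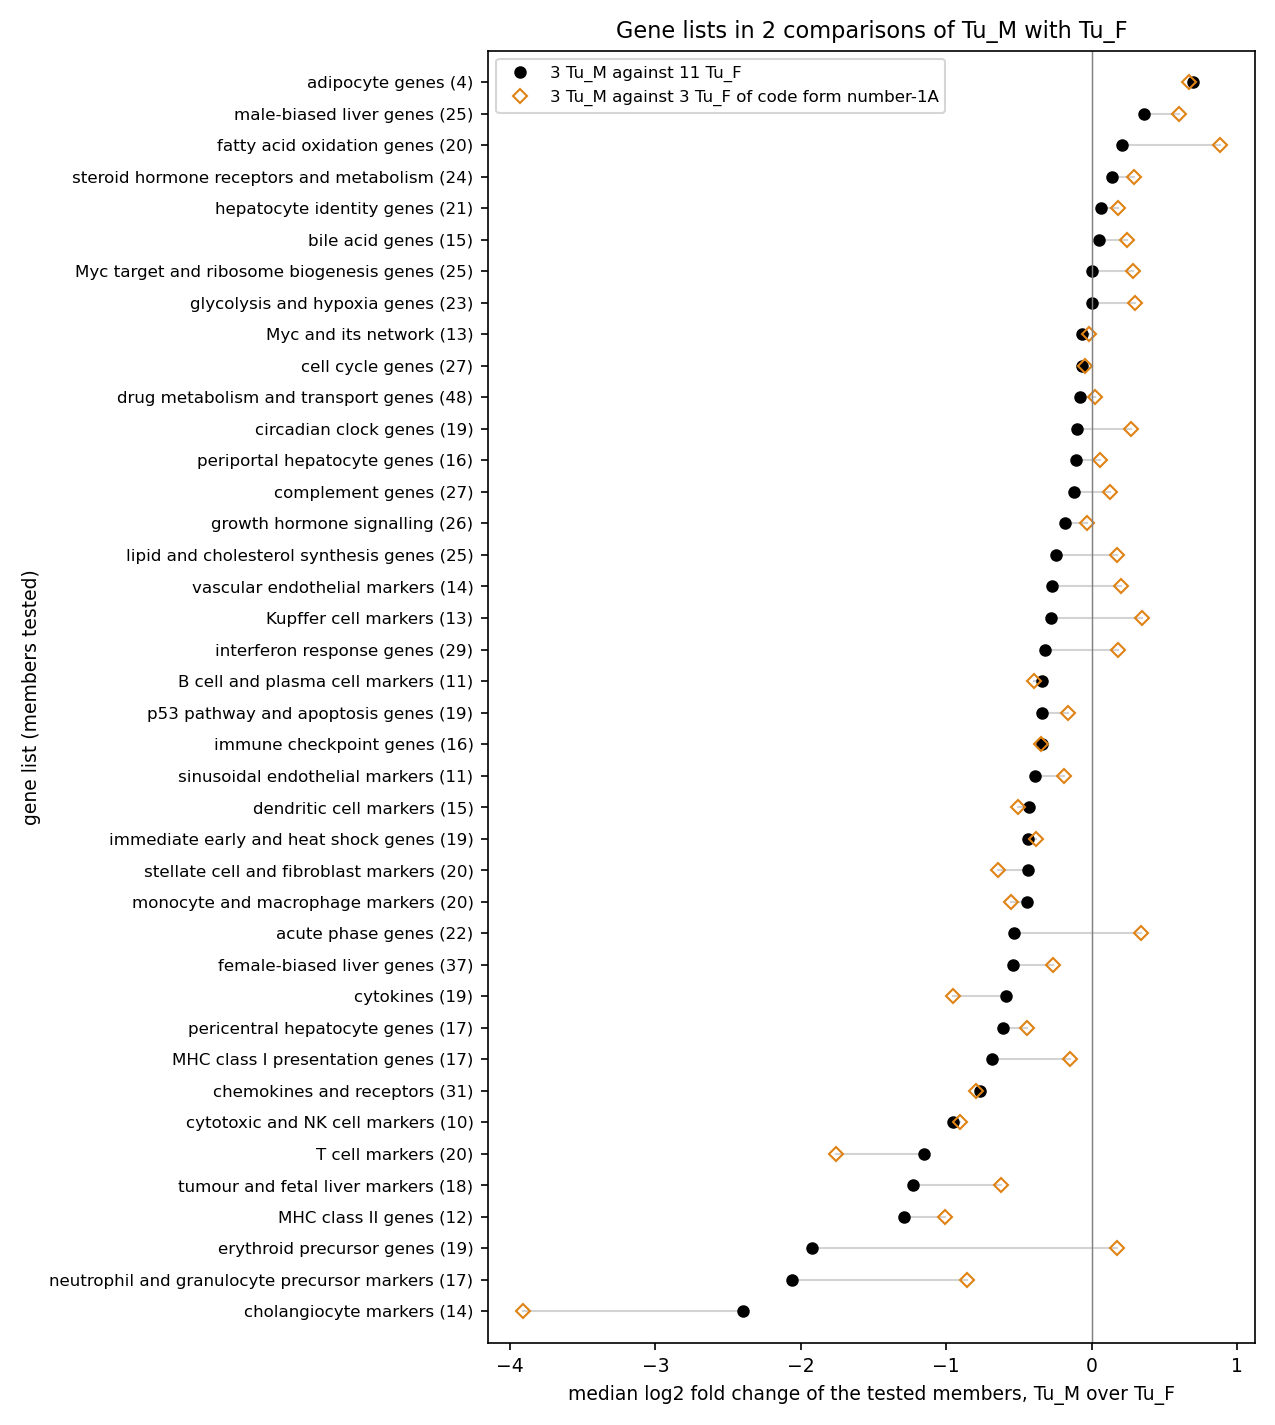
Median log2 fold change of Tu_M over Tu_F for each gene list with at least 4 tested members (count in brackets), for 3 against 11 libraries (filled circles) and for 3 against 3 of code form number-1A (open diamonds). T cell, MHC class II, chemokine and cholangiocyte lists lie below 0 in both, while erythroid, acute phase, Kupffer and interferon lists lie on different sides. The erythroid diamond covers only 10 of the 19 members of its circle.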

How the data were processed

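Total RNA of tumour and peritumour tissue was made into libraries from oligo(dT)-selected mRNA, per the labels' protocols. The tools listed per the submitters' processing notes, with no role for any, are RSEM 1.2.12, HISAT2 2.0.4, DESeq2 1.4.5 and Bowtie2 2.2.5. The authors deposited 1 table with estimated counts per gene and library (8.06% of values not whole) and TPM, per the file headers. The same deposited table gives a log2 fold change and a p-value with a q-value for Tu_M and Tu_F in columns named for DEGseq. It holds 18182 genes, 17398 of them autosomal, on GRCm38, with 1 line that lacks a gene ID dropped. A further 26 symbols turned into dates were looked up by gene ID. Whether counting used strand is not stated, so overlapping antisense partners cannot be told apart.

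Estimated counts were rounded to whole numbers and tested in R 4.3.3 with edgeR 4.0.16 (TMM scaling factors 0.809 to 1.356 in tumour libraries, filterByExpr, robust quasi-likelihood fit, Benjamini-Hochberg adjustment over all 13819 genes tested, 13362 of them autosomal, threshold 0.05). SE is the log2 fold change divided by the root of the F statistic. Alternatives were DESeq2 1.42.0, other scalings and filters, the code form, a replicate block and leaving out each library.

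Named genes were to be the 10 largest rises and falls past the threshold, with the 5 smallest p in each direction where fewer passed, a fixed set of liver genes, and list members past the threshold. Since none passed, the other list members named were chosen after their values were seen, most of them for an unadjusted p under 0.05. 1 gene of the fixed set is not reported here. The members and the 41 gene lists were chosen with earlier results of these data known.

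Libraries of a group carry different sample codes, taken as different animals, which the labels do not state; otherwise p-values measure only the spread between samples. No pair of libraries of a group agreed within sampling noise (lowest index of dispersion 65.1).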

Additional observations from a re-analysis of the deposited data

How the results depend on the processing

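Of 26 alternatives to the count of autosomal genes called between Tu_M and Tu_F, 22 gave 0 as well. DESeq2 called 25. Without a filter on low counts 1 gene was called, Ins2 (log2 fold change 7.11, adjusted p = 0.0256, edgeR), which has 77 counts in Tu_M replicate 3. Leaving out 1 library gave 0 to 1 calls: Trim50 (5.05, adjusted p = 0.0442, edgeR) without Tu_F replicate 7 and Lrp2bp without Tu_F replicate 10. Unadjusted counts then ran from 453 to 1634. Within the shared code form DESeq2 called 74, and leaving out 1 library gave 0 to 0. The code form within Tu_F had 0 to 26 calls on leaving out 1 library. Of the list members DESeq2 called 4 over the 14 libraries: Ccl25, Cyp2b9, Dlk1 and Prom1.

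Same-numbered Tu_M and Tu_F libraries carry different animal codes. Their deviations from the group mean correlated at -0.188, 0.13 and -0.235, with 1 of 3 best with its own number. With 3 libraries a group, this check cannot tell whether same-numbered libraries share anything besides the number. With the replicate number as a block 0 genes were called, with 416 at an unadjusted p under 0.05. In that fit 8 Tu_F libraries have no Tu_M library of the same number and do not bear on the letter. It rests on the 3 same-numbered pairs, with few degrees of freedom left.

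Of 76 genes named and tested, 56 kept their sign in all alternatives. The cause was not tested for any that turned. With the code form as a covariate the log2 fold changes of reversed sign were Myc 0.0234, Cyp2e1 0.312, Muc13 0.101, Cd274 0.309, Stat5b 0.108, Cyp4a12a 1.41, Cyp7b1 0.424, Elovl3 2.39 and Cyp17a1 0.21. Within the shared code form the log2 fold changes of reversed sign were Myc 0.0231, Cyp2e1 0.31, Muc13 0.0968, Cd274 0.3, Stat5b 0.109, Cyp4a12a 1.41, Cyp7b1 0.424 and Cyp17a1 0.205. Over all 28 libraries with the code form as a covariate the log2 fold changes of reversed sign were Cyp2e1 0.561, Muc13 0.0161, Cd274 0.446, Stat5b 0.103, Cyp4a12a 0.902, Cyp7b1 0.623 and Elovl3 1.98. With the replicate block the log2 fold changes of reversed sign were Myc 0.0142, Mki67 -0.0836, Cyp2e1 0.21, Cd274 0.111, Clec4f -0.547, Stat5b 0.189, Cyp4a12a 1.08, Elovl3 1.66 and Cyp17a1 0.347. Without Tu_F replicates 2, 5 and 6, left out for high blood cell precursor genes, the log2 fold changes of reversed sign were Myc 0.0765, Clec4f -0.0909 and Slco1a1 -0.248. Without Tu_F replicates 2, 4, 5 and 6, left out for the same genes, the log2 fold changes of reversed sign were Myc 0.0508 and Clec4f -0.19. On leaving out 1 library at a time the sign also turned for Myc (-0.444 to 0.122), Alb (-0.00906 to 0.448), Cyp2e1 (-0.65 to 0.258), Muc13 (-3.89 to 0.254), Clec4f (-1.58 to 0.448), Stat5b (-0.178 to 0.0386), Igf1 (-0.772 to 0.271), Cyp4a12a (-0.914 to 0.183), Cyp2d9 (-0.0956 to 0.806), Cyp7b1 (-0.867 to 0.439), Elovl3 (-1.15 to 0.841), Slco1a1 (-0.0574 to 1.3), Sult2a1 (-2.38 to 0.0163), Hao2 (-1.37 to 0.208), Acot3 (-1.54 to 0.782), Sult2a2 (-3 to 0.121) and Trim50 (-0.427 to 5.05).

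Groups without overlap under library size alone counted 65 above and 55 below in 14 libraries, and 360 above and 776 below within the shared code form. Of 41 list medians 20 changed sign in 1 or more alternatives.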

Other observations

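Acute phase genes (22 of 22 tested) had 0 higher and 1 lower at an unadjusted p under 0.05 and a median log2 fold change of -0.53 over 11 Tu_F libraries, but 0.34 within the shared code form, the value in brackets for the other lists. Complement genes (27 of 30) had 0 higher and 0 lower and -0.12 (0.13). Apoptosis and p53 pathway genes (19 of 19) had 0 higher and 1 lower and -0.34 (-0.16), and immediate early and heat shock genes (19 of 19) 0 higher and 0 lower and -0.44 (-0.38). Circadian clock genes (19 of 20) had 2 higher and 2 lower and -0.10 (0.27). The lower acute phase gene was Lbp (-1.02), which binds bacterial lipopolysaccharide, the lower p53 pathway gene Bcl2l1 (-0.61), an inhibitor of apoptosis, and the clock genes were Rora (0.82) and Clock (0.84) on the higher and Cry2 (-0.56) and Npas2 (-1.53) on the lower side. Clock, a core activator of the cycle, measured 39.6, 38.1 and 28.2 CPM in Tu_M, 30, 26.1 and 32.8 CPM in the Tu_F libraries of the shared code form and 8.5 to 32.8 CPM (median 14.4) over all Tu_F. Adipocyte genes had 4 of 9 members tested with a median of 0.70 (0.67), which ran from -0.25 without Tu_M replicate 3 to 1.02 without Tu_M replicate 2, and pancreatic acinar genes 1 of 13, at -0.03 (0.48).

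Ins2, an insulin gene that is not a liver gene, measured 5.32 CPM in Tu_M replicate 3 and 4.82 CPM in Pe_M replicate 3, which carry the same animal code. It lay at 0.0671 CPM or less in the other 26 libraries. Trim50 measured 21.2 CPM in Tu_M replicate 2 and 9.95 CPM in Tu_F replicate 7, and 2.86 CPM or less in the other 26 libraries. Both genes were chosen after their values were seen.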
